A study of Mus musculus with 4 samples.

Results

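The genes described here are the mouse receptors for extracellular nucleotides and adenosine that macrophages are known to carry, with the cell-surface enzyme Entpd1, which breaks nucleotides down. They were chosen by name, with earlier results of these data known, as rows on the primary chromosomes. All 10 named genes were found among the 32617 genes of the table. All 10 also passed the filter on low counts, which kept 14104 genes. Messenger RNA of macrophages derived from blood monocytes was sequenced in 4 libraries. Peptide-treated classically activated macrophages (CAM) gave 2 libraries, CAM gave 1 library and M-CSF macrophages gave 1 library. All were cultured from CD11b-selected monocytes in 30 ng/ml M-CSF, a growth factor that turns monocytes into macrophages, over 6 or 7 days. The monocytes came from pooled blood of 60 mice aged 10 to 16 weeks. Their strain label reads C57BL/6J for M-CSF and CAM and C57BL/7J for the peptide samples. CAM and peptide-treated CAM were stimulated with 500 ng/ml of LPS together with 20 ng/ml of IFNγ, and peptide-treated CAM also received mML56, which spans residues 1 to 56 of Ninj1 and stands in for the soluble form of that protein. The cultures are models made outside the body, and no label says that the libraries came from separate cultures.

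Dying and stressed cells release ATP, UTP and UDP-sugars, which neighbouring cells sense through P2 receptors. P2X receptors are ion channels opened by ATP, and P2Y receptors are G protein-coupled receptors for adenine and uracil nucleotides. Entpd1 (CD39) removes phosphates from ATP and ADP, the enzyme CD73 turns the resulting AMP into adenosine, and adenosine receptors of the A2 type raise cyclic AMP and dampen inflammatory activity in macrophages. In macrophages this system is best known for P2rx7, through which ATP triggers inflammasome activation.

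Levels are given in CPM, where each count is divided by its library's total after TMM scaling. The libraries held 12842680 and 12119427 counts in peptide libraries 1 and 2, 10333986 in CAM and 12414586 in M-CSF. Lars2 and Gm15662 together took 10.5% and 7.79% of counts in the peptide libraries, 14.1% in CAM and 6.40% in M-CSF. Mitochondrial genes took 1.32% and 1.01% of counts with the peptide, 1.63% in CAM and 6.08% in M-CSF, which sets M-CSF apart as many member levels do, and the part of this in the results was not tested. All 6 macrophage markers had counts in every library, with sums of 2494 and 2122 CPM with the peptide, 2317 in CAM and 1331 in M-CSF. Single markers differed in direction: Adgre1, Itgam and Fcgr1 were higher and Csf1r and Cd68 lower in CAM than in M-CSF. Csf1r, the M-CSF receptor, stood at 29.9 and 41.2 CPM with the peptide, 65.4 CPM in CAM and 399.4 CPM in M-CSF. Cd68 stood at 39.0 and 32.8 CPM with the peptide, 1.19 CPM in CAM and 13.4 CPM in M-CSF, and was called lower in CAM than in M-CSF and higher with the peptide than in CAM, as P2ry6 was. Eif1 and Mcl1, named after their values were seen, are expressed by most cells, yet Eif1 was listed at 0 in CAM and Mcl1 at 0 in M-CSF, so a gene listed at 0 need not be absent. CAM and M-CSF had no replicate, so the edgeR test took its spread from the 2 peptide libraries and assumed that the others vary like them. The levels of a member in the 2 peptide libraries lay between 1.06-fold (Adora2a) and 1.48-fold (Adora2b) apart, against a median of 1.12-fold over the 7370 genes averaging 10 CPM or more with counts in both. P2rx7, P2ry6, P2ry13 and P2ry14 lay 1.32-fold to 1.34-fold apart, and only Adora2a and Entpd1 lay below that median. P2ry12 and P2ry13 averaged less than 10 CPM.

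Adora2a, Adora2b and P2ry14 were higher in both activated groups than in M-CSF, while P2rx7, P2ry12, P2ry13, P2ry6 and Entpd1 were lower. P2ry2 stood at about the same level in CAM and M-CSF and was higher with the peptide. P2rx4 passed the threshold in 1 comparison, lower in CAM than in M-CSF. Between CAM and M-CSF, 3 of the 10 were higher and 6 lower by edgeR's quasi-likelihood test (threshold of 0.05 on p adjusted over all tested genes), beside 21.4% higher and 23.0% lower (44.4% in all) among all tested genes. Between peptide-treated CAM and CAM, 3 were higher and 0 lower by edgeR (4 and 0 at an unadjusted p under 0.05, 3 and 0 by DESeq2's Wald test, 3 and 1 under a correction for gene length and GC content), beside 20.6% and 17.1% (37.7% in all) of all tested genes, a share of members close to that background. Between peptide-treated CAM and M-CSF, 4 were higher and 5 lower, beside 22.1% and 19.0% (41.2% in all). Counted by size alone, 8, 3 and 9 of the 10 differed by at least 2-fold in these comparisons, beside 47.7%, 36.9% and 38.5% of all tested genes. Of all calls between CAM and M-CSF, 48.2% were higher with TMM and 28.5% when only library size was scaled for, with 3 members higher and 6 lower either way. Of those between the peptide and M-CSF, 53.8% were higher with TMM (4 members higher, 5 lower), 33.2% by library size alone (4 and 6) and 43.7% under a correction for gene length and GC content (4 and 5). The members' median log2 fold changes were -1.03, -0.05 and -0.76 in these comparisons, beside -0.07, 0.05 and -0.08 over all tested genes. The members were chosen with earlier results known, so their shares beside those of all tested genes describe them and test nothing. The comparisons share libraries, so they are not independent of each other, and in bulk samples fewer cells of a type and less RNA per cell cannot be told apart.

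**Figure D1:**
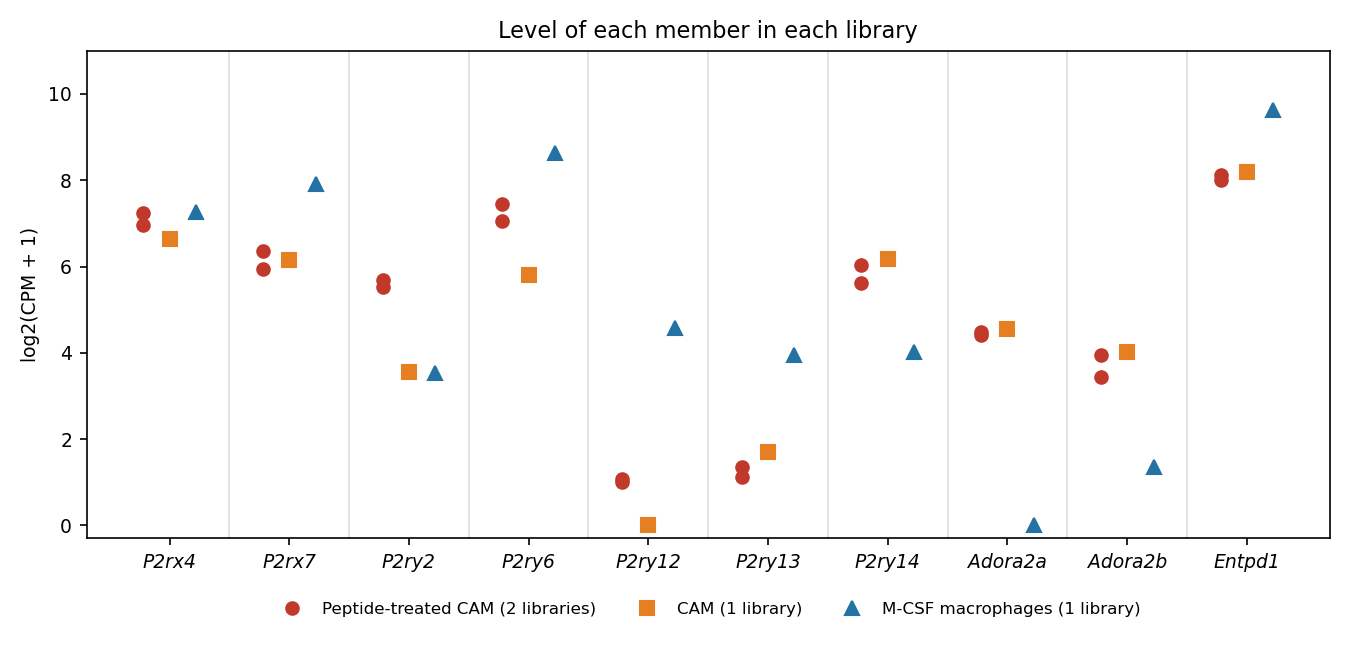
Level of each member in each library, as log2(CPM + 1), with circles for peptide-treated CAM (2 libraries), squares for CAM and triangles for M-CSF (1 library each). M-CSF is the highest library for P2rx7, P2ry6, P2ry12, P2ry13 and Entpd1, and narrowly for P2rx4. It is the lowest for P2ry14, Adora2a and Adora2b, and narrowly for P2ry2. P2ry12 is at 0 in CAM and Adora2a at 0 in M-CSF.

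The ATP-gated channels are encoded by P2rx7 and P2rx4, which lie 16111 bases apart on chromosome 5. P2rx7 (ENSMUSG00000029468, mm10 chromosome 5, 122643911 to 122691432) needs high ATP to open and is the channel of ATP-driven inflammasome activation. It stood at 60.1 and 80.7 CPM with the peptide, 70.4 CPM in CAM and 240.8 CPM in M-CSF. The CAM library lay between the 2 peptide libraries, and all 3 activated libraries lay far below M-CSF. P2rx7 was 3.42-fold lower in CAM than in M-CSF (log2 fold change -1.77, SE 0.227, edgeR adjusted p = 3.22e-05). Between the peptide and CAM the log2 fold change was 0.00 (95% interval -0.42 to 0.42), and its sign turned with the peptide library used: 0.20 without peptide library 1 and -0.23 without peptide library 2.

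P2rx4 (ENSMUSG00000029470, chromosome 5, 122707544 to 122729738), a channel that responds to lower ATP and sits largely in lysosomes, stood at 124.3 and 149.4 CPM with the peptide, 99.2 CPM in CAM and 152.1 CPM in M-CSF. CAM was the lowest library, and the peptide libraries lay between it and M-CSF. It was lower in CAM than in M-CSF by a log2 value of -0.62 (SE 0.202, edgeR adjusted p = 0.0246), a call that DESeq2's Wald test did not make (adjusted p = 0.123). Against CAM, the peptide value was 0.46 (SE 0.178, edgeR adjusted p = 0.0564), which missed the threshold, and it passed with library size only as the scaling (0.56, adjusted p = 0.0208) and with a stricter filter on low counts (0.48, adjusted p = 0.0386). With the peptide against M-CSF it was -0.15 (95% interval -0.52 to 0.22), though -0.54 and past the threshold with library size only (adjusted p = 0.0148). The ratio of P2rx4 to P2rx7 counts was 2.07 and 1.85 with the peptide, 1.41 in CAM and 0.632 in M-CSF. Like the other count ratios given here, it does not depend on the scaling for library size and is not a ratio of levels per length. These ratios were not corrected for gene length and GC content.

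P2ry2 and P2ry6, which both respond to uracil nucleotides, rose with the peptide relative to CAM. P2ry14, a receptor for UDP-sugars, did not pass the threshold in that comparison. P2ry2 (ENSMUSG00000032860, chromosome 7, 100996568 to 101012866), a receptor for ATP and UTP that guides phagocytes to dying cells, stood at 50.2 and 44.7 CPM with the peptide, 10.7 CPM in CAM and 10.6 CPM in M-CSF. Both peptide libraries were high and the other 2 libraries were almost equal. P2ry2 was 4.42-fold higher with the peptide than in CAM (log2 fold change 2.14, SE 0.247, edgeR adjusted p = 4.3e-05) and 4.46-fold higher than in M-CSF (adjusted p = 8.7e-06). Between CAM and M-CSF its log2 fold change was 0.01 (95% interval -0.58 to 0.60), or -0.46 with library size only, neither past the threshold. With a correction for gene length and GC content (the length and GC correction) the rise over CAM was 1.56 on the log2 scale.

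P2ry6 (ENSMUSG00000048779, chromosome 7, 100937630 to 100974649), the receptor for UDP, which promotes phagocytosis in microglia, lies 21918 bases from P2ry2. It stood at 174.6 and 132.4 CPM with the peptide, 55.0 CPM in CAM and 397.2 CPM in M-CSF. No groups overlapped: CAM was lowest, the peptide libraries were intermediate and M-CSF was highest. P2ry6 was 7.22-fold lower in CAM than in M-CSF (log2 fold change -2.85, SE 0.235, edgeR adjusted p = 5.72e-07). With the peptide it was 2.79-fold higher than in CAM (1.48, SE 0.207, edgeR adjusted p = 0.000162) and 2.59-fold lower than in M-CSF (-1.37, SE 0.18). Under the length and GC correction the rise over CAM was 0.78 on the log2 scale and stayed past the threshold (adjusted p = 0.0282). There were 3.48 and 2.96 P2ry6 counts for each P2ry2 count with the peptide, 5.13 in CAM and 37.4 in M-CSF.

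P2ry14, P2ry13 and P2ry12 lie in that order on the minus strand of chromosome 3, all inside the span of Med12l, which is transcribed from the other strand. P2ry12 and P2ry13 are receptors for ADP, and P2ry14 is a receptor for UDP-glucose and other UDP-sugars; all couple to Gi proteins, which lower cyclic AMP. The gap is 5389 bases between P2ry13 and P2ry12 and 54273 bases between P2ry14 and P2ry13. P2ry12 and P2ry13 were highest in M-CSF and P2ry14 was lowest there. Promoters of the 3 genes (250 bases before to 50 after the start, RefSeq, build GRCm38.p6, minus strand, 5′ to 3′) are shown because P2ry14 was higher and its neighbours P2ry12 and P2ry13 were lower in CAM than in M-CSF. Capitals mark matches to the motifs searched, which in P2ry12 are a kappaB motif on the opposite strand and a PU.1 match (GGAAGT) that overlaps it, and in P2ry14 an AP-1 match (TGANTCA) found on both strands.
P2ry12, chr3:59262936-59263235: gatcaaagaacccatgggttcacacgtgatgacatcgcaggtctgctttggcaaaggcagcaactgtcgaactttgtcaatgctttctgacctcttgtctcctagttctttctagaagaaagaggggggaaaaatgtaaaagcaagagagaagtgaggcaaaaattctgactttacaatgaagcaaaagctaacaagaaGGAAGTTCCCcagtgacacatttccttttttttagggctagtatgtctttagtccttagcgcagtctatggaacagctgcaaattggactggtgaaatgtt
P2ry13, chr3:59210833-59211132: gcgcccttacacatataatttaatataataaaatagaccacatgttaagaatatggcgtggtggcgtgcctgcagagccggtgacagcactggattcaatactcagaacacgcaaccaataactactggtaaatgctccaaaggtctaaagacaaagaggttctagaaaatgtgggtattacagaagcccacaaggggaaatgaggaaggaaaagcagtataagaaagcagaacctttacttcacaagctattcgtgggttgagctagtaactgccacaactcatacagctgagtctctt
P2ry14, chr3:59153443-59153742, the first of 4 listed promoters: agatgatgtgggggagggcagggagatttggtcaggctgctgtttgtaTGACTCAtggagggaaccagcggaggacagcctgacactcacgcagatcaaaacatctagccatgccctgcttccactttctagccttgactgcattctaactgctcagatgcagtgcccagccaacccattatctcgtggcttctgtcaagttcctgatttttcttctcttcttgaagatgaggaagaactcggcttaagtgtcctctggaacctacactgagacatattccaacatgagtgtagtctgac

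The matches begin 51 bases before the start of P2ry12 and 202 bases before that of P2ry14, and P2ry13 had no match in this window. RefSeq promoters were found for 8 of the 10 members, 14 promoters in all, and not for P2ry6 and Adora2a. Of these 14, 1 held the kappaB motif (8.46% of all 32851 promoters), 3 AP-1 (7.81%), 5 PU.1 (23.8%), 0 the GAS motif TTCNNNGAA (8.3%) and 0 the core of the interferon-stimulated response element (ISRE) (3.44%), both strands searched. The other AP-1 matches were in a second P2ry14 promoter and in P2rx7, and the other PU.1 matches in P2rx7, P2ry14 and Adora2b. These are matches of letters only.

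P2ry12 (ENSMUSG00000036353, chromosome 3, 59216272 to 59262871), the platelet ADP receptor and a marker of resting microglia, stood at 1.12 and 0.998 CPM with the peptide, was listed at 0 in CAM and stood at 22.8 CPM in M-CSF. These levels rest on 13 and 12 counts with the peptide (95% Poisson intervals 6.92 to 22.2 and 6.2 to 21 counts, for counting error only). Taken at face value, against a floor of 3 counts per library, P2ry12 was at least 70.0-fold lower in CAM than in M-CSF (edgeR adjusted p = 9.29e-07) and at least 3.26-fold higher with the peptide than in CAM (edgeR adjusted p = 0.00319). With the peptide it was 21.3-fold lower than in M-CSF (log2 fold change -4.41, SE 0.368, edgeR adjusted p = 5.62e-07). The call of the peptide against CAM thus sets these few counts per library against a listed 0. DESeq2's Wald test passed it narrowly (adjusted p = 0.0489). Bounds against the floor use the measured level as it stands and leave out its counting error.

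P2ry13 (ENSMUSG00000036362, chromosome 3, 59207892 to 59210882) stood at 1.55 and 1.16 CPM with the peptide, 2.27 CPM in CAM and 14.4 CPM in M-CSF, from 18, 14, 21 and 222 counts. All activated libraries were far below M-CSF, and the peptide libraries were below CAM by a margin within the test's error (log2 fold change -0.74, 95% interval -1.79 to 0.30). P2ry13 was 6.3-fold lower in CAM than in M-CSF (-2.66, SE 0.493, edgeR adjusted p = 0.00071), which DESeq2's Wald test narrowly missed (adjusted p = 0.0506), and 10.6-fold lower with the peptide than in M-CSF (-3.40, SE 0.398).

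P2ry14 (ENSMUSG00000036381, chromosome 3, 59113855 to 59153618) went the other way. It stood at 64.5 and 48.4 CPM with the peptide, 71.3 CPM in CAM and 15.2 CPM in M-CSF. Every activated library was above M-CSF. P2ry14 was 4.68-fold higher in CAM than in M-CSF (log2 fold change 2.23, SE 0.252, edgeR adjusted p = 1.12e-05) and 3.7-fold higher with the peptide than in M-CSF (1.89, SE 0.229). Between the peptide and CAM it was -0.34 (95% interval -0.77 to 0.10), and 0.26 under the length and GC correction, neither past the threshold. P2ry14 had 41.7 and 41.6 counts for each P2ry13 count with the peptide, 31.4 in CAM and 1.06 in M-CSF. The ratios in the activated libraries are rough, as they rest on 18, 14 and 21 P2ry13 counts. The 95% Poisson intervals of these are 10.67 to 28.45, 7.65 to 23.5 and 13 to 32.1 counts. Med12l, whose exons overlap those of P2ry12 by 9 bases and those of P2ry13 and P2ry14 by 0, stood at 0.172 and 0 CPM with the peptide and 0.65 CPM in CAM, and was at 0 after rounding in M-CSF.

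P2ry12 is also a platelet gene, and the summed level of platelet markers was highest in the same library, M-CSF, though not that of every marker. Summed over 6 platelet markers the level was 14.02 and 12.3 CPM with the peptide, 5.41 CPM in CAM and 83.4 CPM in M-CSF. Most of this was Pf4, at 11.8 and 8.65 CPM with the peptide, 2.06 CPM in CAM and 74.3 CPM in M-CSF. The defining platelet gene Gp1bb was listed at 0 in all 4 libraries, and Ppbp stood at 0.324 CPM in M-CSF and was listed at 0 in the other 3. Treml1 stood at 0.602 and 0.748 CPM with the peptide, was listed at 0 in CAM and stood at 5.96 CPM in M-CSF, and like P2ry12 was called lower in CAM than in M-CSF (edgeR adjusted p = 0.000196) and higher with the peptide than in CAM (edgeR adjusted p = 0.0229). The other 2 markers were not highest in M-CSF. Itga2b stood at 1.63 and 2.49 CPM with the peptide, 2.92 CPM in CAM and 2.66 CPM in M-CSF, and Gp9 at 0 and 0.416 CPM with the peptide, 0.433 CPM in CAM and 0.13 CPM in M-CSF. Summed over 5 B cell markers the level was 1.29 and 2.16 CPM with the peptide, 2.38 CPM in CAM and 112.7 CPM in M-CSF, nearly all of it Ighm in M-CSF. Dendritic cell markers summed to 15.5 and 14.9 CPM with the peptide, 64.5 CPM in CAM and 5.9 CPM in M-CSF, markers of T and NK cells to 4.04 and 3.33, 5.74 and 15.2 CPM in the same order, neutrophil markers to 10.1 and 14.3, 18.1 and 12.9 CPM, and those of fibroblasts and endothelium to 21.4 and 32.0, 27.4 and 22.4 CPM. Erythroid markers and those of basophils and mast cells reached at most 2.27 CPM. The part of these markers in the levels of the members was not tested.

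**Figure D2:**
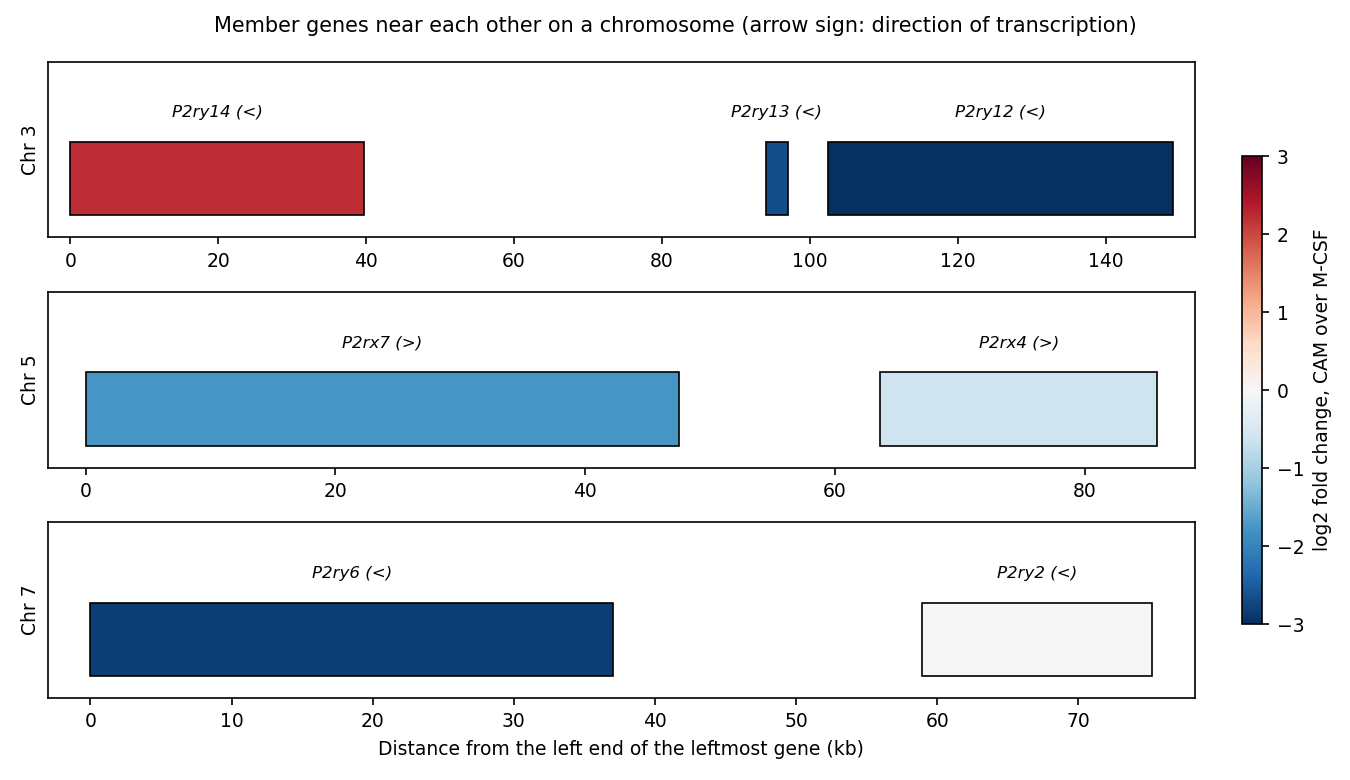
Member genes that lie near each other on chromosomes 3, 5 and 7, drawn to scale in kilobases from the left end of the leftmost gene, with the sign beside each name giving the direction of transcription and the colour giving the log2 fold change of CAM over M-CSF (P2ry12 at its bound, colours limited at 3 in either direction). P2ry14 is red (2.23) while P2ry13 (-2.66) and P2ry12 beside it are blue, and P2ry6 (-2.85) is blue while P2ry2 (0.01) is almost white.

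Both adenosine receptors of the A2 type were far higher in the activated groups than in M-CSF. The other tested adenosine receptors, Adora3 and Adora1, passed no threshold between CAM and M-CSF (log2 fold changes 0.43 and -1.91). Adora2a (ENSMUSG00000020178, chromosome 10, 75316943 to 75334788), the adenosine receptor of higher affinity, stood at 21.5 and 20.2 CPM with the peptide and 22.3 CPM in CAM, and was listed at 0 in M-CSF. The activated libraries were nearly equal. Taken at face value, against the floor of 3 counts per library, it was at least 115-fold higher in CAM than in M-CSF (edgeR adjusted p = 6.79e-08) and at least 107-fold higher with the peptide than in M-CSF (edgeR adjusted p = 4.11e-08). Between the peptide and CAM its log2 fold change was -0.10 (95% interval -0.64 to 0.44), but -0.78 and past the threshold under the length and GC correction (adjusted p = 0.0403).

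Adora2b (ENSMUSG00000018500, chromosome 11, 62248984 to 62266453), the adenosine receptor of lower affinity, stood at 9.81 and 14.6 CPM with the peptide, 15.3 CPM in CAM and 1.56 CPM in M-CSF. It was 9.76-fold higher in CAM than in M-CSF (log2 fold change 3.29, SE 0.436, edgeR adjusted p = 4.41e-05) and 7.79-fold higher with the peptide than in M-CSF (2.96, SE 0.404). The peptide libraries lay below CAM, by a log2 value of -0.33 (95% interval -1.01 to 0.36) that did not pass the threshold. Counts of Adora2a were 2.19 and 1.39 times those of Adora2b with the peptide and 1.46 times in CAM.

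Entpd1 (ENSMUSG00000048120, chromosome 19, 40612366 to 40741602), the ATP- and ADP-degrading enzyme CD39, stood at 278.6 and 257.7 CPM with the peptide, 291.9 CPM in CAM and 795.4 CPM in M-CSF. All 3 activated libraries lay within a narrow range, far below M-CSF. It was 2.73-fold lower in CAM than in M-CSF (log2 fold change -1.45, SE 0.199, edgeR adjusted p = 6.03e-05) and 2.97-fold lower with the peptide than in M-CSF (-1.57, SE 0.162). Between the peptide and CAM it was -0.12 (95% interval -0.49 to 0.24), or 0.055 under the length and GC correction.

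**Figure D3:**
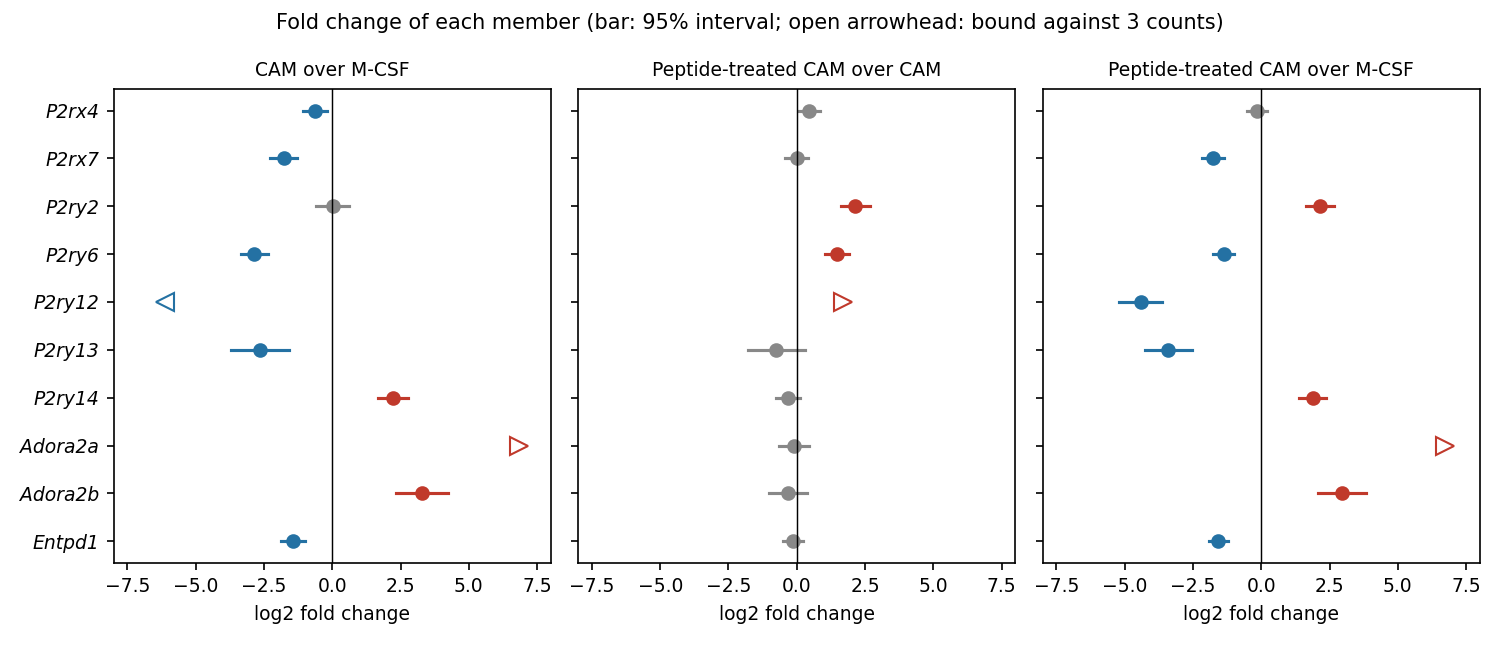
Log2 fold change of each member (rows) in CAM over M-CSF (left), peptide-treated CAM over CAM (middle) and peptide-treated CAM over M-CSF (right); bars are 95% intervals of the edgeR fit, red and blue points passed the threshold, grey points did not, and open arrowheads are bounds against a floor of 3 counts. In the middle panel P2ry2 (2.14) and P2ry6 (1.48) stand apart to the right, with P2ry12 at its bound.

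Levels of different genes can be compared per length of transcript. Divided by the length of all exons of a gene, Entpd1 and P2ry6 were the highest 2 of the 10 in every library. Entpd1 stood at 49.9 and 46.2 CPM per kilobase with the peptide, 52.3 in CAM and 142.5 in M-CSF, and P2ry6 at 60.5 and 45.8 with the peptide, 19.1 in CAM and 137.6 in M-CSF. By this measure P2ry6 made up 35.5% and 29.0% of the summed level of the 10 genes with the peptide, 15.5% in CAM and 38.0% in M-CSF, and P2ry2 made up 7.51% and 7.21% with the peptide, 2.22% in CAM and 0.748% in M-CSF. These shares do not use the length and GC correction. Under it the log2 rise over CAM was 0.78 for P2ry6, against 1.48 without it, and 1.56 for P2ry2, against 2.14. P2ry12 and P2ry13 were the lowest in each activated library, while Adora2a and Adora2b were the lowest in M-CSF. With the longest transcript as the length, the same pairs were highest and lowest, and the order of Entpd1 and P2ry6 changed in M-CSF and in peptide library 2.

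By distance between mean-centred log2(CPM + 1) values over the 4 libraries, the gene most like P2ry2 was Gsdmd, the pore former of pyroptosis, at 294.1 and 273.7 CPM with the peptide, 73.2 CPM in CAM and 70.0 CPM in M-CSF (distance 0.0962, with 41 named genes within 0.5). The gene most like P2ry6 was Slc37a2, a sugar-phosphate transporter of macrophages, at 187.3 and 146.3 CPM with the peptide, 61.4 CPM in CAM and 396.1 CPM in M-CSF (distance 0.126). The most like P2rx7 was Nlrp1b, an inflammasome sensor, at 24.2 and 31.7 CPM with the peptide, 28.6 CPM in CAM and 95.03 CPM in M-CSF (distance 0.0536). Within 0.5 lay 208 named genes for P2rx7, 94 for P2ry6 and the 41 for P2ry2, so none of these patterns is particular to the gene named. For the others the nearest genes were Slamf7 (Adora2a), Gsap (Adora2b), Hsph1 (P2ry14), Pcp4l1 (P2ry12), Anks6 (P2ry13), Wrb (Entpd1) and Nupr1l (P2rx4). P2rx4 had 1904 named genes within 0.5 and P2ry12 had 8, so these likenesses over 4 libraries differ greatly in how many genes share them. Among the members, the closest pair was P2rx7 and Entpd1 (distance 0.441).

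Of 37 other genes of nucleotide and adenosine handling, 36 were in the table and 21 passed the filter on low counts. Between CAM and M-CSF 5 of the 21 were higher and 7 lower (4 and 3 by DESeq2's Wald test), beside 21.4% and 23.0% (44.4% in all) of all tested genes, with a median log2 fold change of -0.21. Between the peptide and CAM 5 were higher and 5 lower (2 and 2 by DESeq2's Wald test, 2 and 4 under the length and GC correction), beside 20.6% and 17.1% (37.7% in all), with a median of -0.50. Between the peptide and M-CSF 6 were higher and 8 lower (4 and 4 by DESeq2's Wald test), beside 22.1% and 19.0% (41.2% in all), with a median of -0.41. Single further genes are called below by edgeR only, and in each comparison fewer of them passed by DESeq2's Wald test.

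Of the 12 further receptors 4 were tested. P2ry1, the other ADP receptor of platelets, stood at 1.2 and 0.166 CPM with the peptide, 1.3 CPM in CAM and 9.59 CPM in M-CSF, and was lower in CAM than in M-CSF (log2 fold change -2.87, edgeR adjusted p = 0.00942). P2ry4, a UTP receptor, stood at 1.89 and 2.41 CPM with the peptide, 0.217 CPM in CAM and 2.33 CPM in M-CSF. It was higher with the peptide than in CAM (3.25, SE 0.919, edgeR adjusted p = 0.0146) on few counts. Adora3, the A3 adenosine receptor, stood at 9.03 and 12.4 CPM with the peptide, 7.26 CPM in CAM and 5.38 CPM in M-CSF. Its only call was higher with the peptide than in M-CSF (log2 fold change 0.99, edgeR adjusted p = 0.0355). Adora1, another adenosine receptor, stood at 0.172 and 0.0831 CPM with the peptide, 0.217 CPM in CAM and 0.843 CPM in M-CSF. It passed no threshold. P2rx1, the ATP-gated channel of platelets, was listed at 0 in all 4 libraries.

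Of the genes of nucleotide release, Panx1, a channel through which ATP leaves cells, stood at 26.7 and 22.9 CPM with the peptide, 22.5 CPM in CAM and 5.83 CPM in M-CSF, and was higher in CAM than in M-CSF (log2 fold change 1.95, SE 0.3, edgeR adjusted p = 0.000161). Gja1, which encodes connexin 43, stood at 19.3 and 18.5 CPM with the peptide, 57.1 CPM in CAM and 3.5 CPM in M-CSF. It was lower with the peptide than in CAM (-1.60, SE 0.213, edgeR adjusted p = 0.000119). Slc17a9, the vesicular nucleotide transporter, stood at 2.32 and 3.08 CPM with the peptide, 1.73 CPM in CAM and 12.96 CPM in M-CSF.

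The genes listed as ectonucleotide enzymes were grouped by gene family, and not all of them need act outside the cell. Of these, 0 of 8 tested were higher and 3 were lower with the peptide than in CAM by edgeR (1 and 5 at an unadjusted p under 0.05, 0 and 1 by DESeq2's Wald test). Beside this stood 20.6% higher and 17.1% lower (37.7% in all) among all tested genes, so the share called in either direction was close to that background. Nt5e, which encodes CD73, stood at 2.06 and 2.24 CPM with the peptide, 4.44 CPM in CAM and 2.59 CPM in M-CSF and passed no threshold. Enpp1, which cleaves ATP to AMP, stood at 2.93 and 5.74 CPM with the peptide, 4.77 CPM in CAM and 37.3 CPM in M-CSF, and was lower in CAM than in M-CSF (log2 fold change -2.97, SE 0.42, edgeR adjusted p = 7.66e-05). Acpp, an acid phosphatase that acts on AMP, stood at 2.67 and 4.07 CPM with the peptide, 14.9 CPM in CAM and 4.47 CPM in M-CSF, and Entpd5 at 1.12 and 10.1 CPM with the peptide, 37.6 CPM in CAM and 24.7 CPM in M-CSF. Both were lower with the peptide than in CAM (-2.14 and -2.74), and the peptide libraries differed widely for Entpd5.

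Transporters of adenosine moved in both directions. Slc28a2, a sodium-coupled importer of purine nucleosides, stood at 573.8 and 775.9 CPM with the peptide, 456.3 CPM in CAM and 19.1 CPM in M-CSF. It was higher in CAM than in M-CSF by a log2 value of 4.58 (SE 0.273, edgeR adjusted p = 3.1e-08) and higher with the peptide than in CAM by 0.56 (SE 0.203, edgeR adjusted p = 0.0438). Slc29a1, the main equilibrative nucleoside transporter of the plasma membrane, stood at 11.7 and 14.3 CPM with the peptide, 4.77 CPM in CAM and 48.4 CPM in M-CSF. It was lower in CAM than in M-CSF (-3.34, SE 0.321, edgeR adjusted p = 2.49e-06) and higher with the peptide than in CAM (1.45, SE 0.295, edgeR adjusted p = 0.0022). Slc29a3, a lysosomal nucleoside transporter, stood at 422 and 387.5 CPM with the peptide, 196.8 CPM in CAM and 292.8 CPM in M-CSF, and was higher with the peptide than in CAM (1.04, SE 0.176, edgeR adjusted p = 0.000629). Of the enzymes that remove adenosine, Ada, the deaminase, stood at 2.67 and 1.75 CPM with the peptide, 0.325 CPM in CAM and 4.21 CPM in M-CSF, and Adk, the kinase, at 5.33 and 5.4 CPM with the peptide, 12.9 CPM in CAM and 14.8 CPM in M-CSF. With the peptide against CAM, Ada was higher (2.72, edgeR adjusted p = 0.0191) and Adk was lower (-1.26, edgeR adjusted p = 0.00561).

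**Figure D4:**
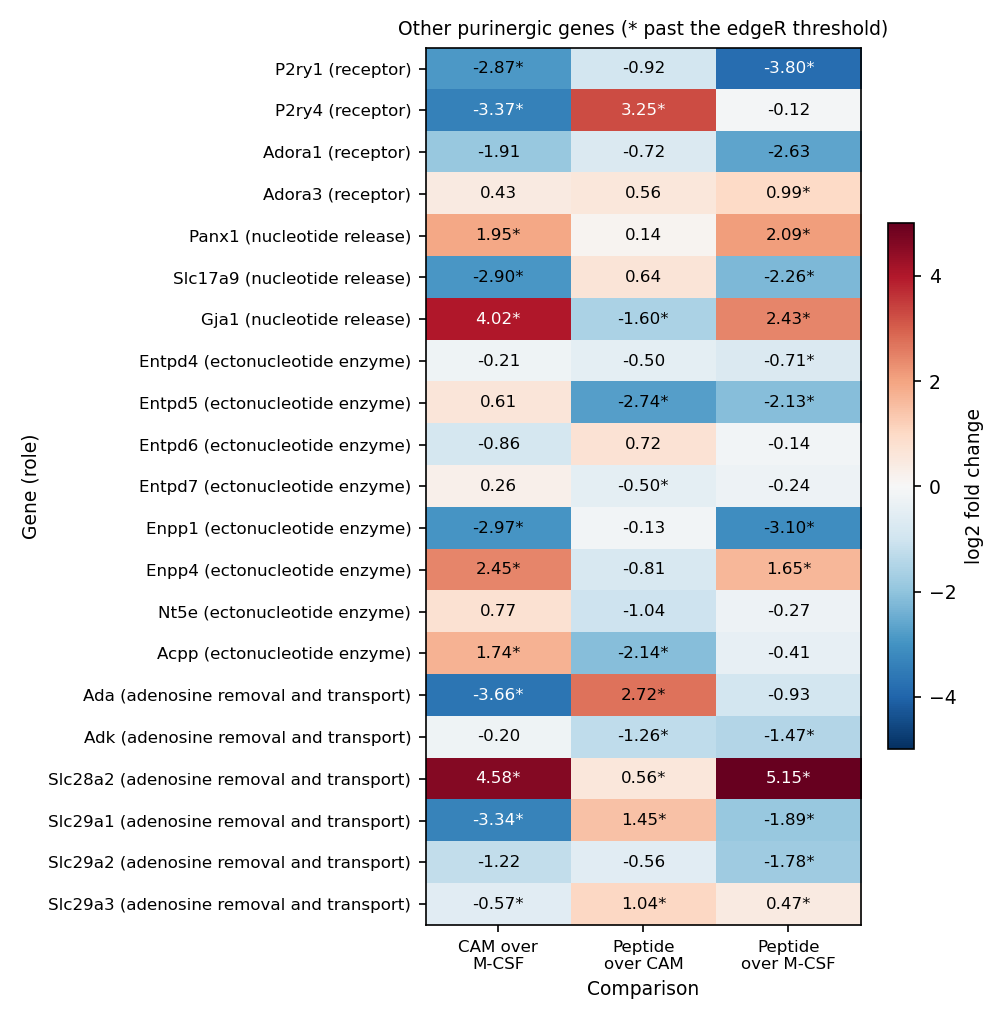
Log2 fold changes of the 21 tested further genes (rows, with their role) in the 3 comparisons (columns), with an asterisk where the edgeR test passed the threshold and red for higher and blue for lower. Slc28a2 has the deepest red in CAM over M-CSF (4.58), and P2ry4, Ada, Slc29a1 and Slc29a3 are blue in that column and red in peptide over CAM.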

How the data were processed

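The tools kallisto and StringTie and the build mm10 are named in the submitters' processing notes; what each did, with which annotation and strand setting, is not given in the sources used here. Libraries were made with a directional mRNA kit, per the labels' protocols. The values deposited by the authors are estimated counts for each gene, not scaled and in part fractional, with 1 listed transcript length per gene, another value that was not used. Counts were rounded, filtered with filterByExpr (14104 of 32617 genes) and scaled by TMM (factors 0.906 and 0.993 for the peptide libraries, 0.894 for CAM, 1.24 for M-CSF). Genes were tested by quasi-likelihood in edgeR (glmQLFTest, edgeR 4.0.16, R 4.3.3) on all 4 libraries in 3 groups, with Benjamini-Hochberg adjustment over all tested genes and a threshold of 0.05. It had 1 residual degree of freedom, moderated by 11.8 prior degrees of freedom. P-values rest on how far the 2 peptide libraries lie apart, and that distance may be technical. The fold changes use edgeR's prior count of 0.125, standard errors are the log2 fold change over the square root of F, and intervals use the moderated t quantile. The fit was also run on simulated counts for CAM against M-CSF, drawn with the fit's own common spread for all 4 libraries. That run therefore cannot show whether CAM and M-CSF vary like the peptide libraries.

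The members, the further gene list and the markers were chosen with earlier results of these data known. Named genes were the 10 members, tested genes of the further list, Med12l, and for each member the 1 most similar gene. Alternatives were library size only, DESeq2 1.42.0 size factors or Wald test, no or a stricter filter, a correction for gene length and GC content through an offset (available for 99.3% of tested genes), each peptide library left out, and a block on column numbers. Exon lengths, strands and 31-base overlaps came from GENCODE M21, whose gene ends matched the deposited ones for 9 of the 10 members (not Adora2a). Shared 31-base stretches with other genes made up at most 4.5% of a member's (P2rx4).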

Additional observations from a re-analysis of the deposited data

How the results depend on the processing

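The number of members called ranged from 7 (DESeq2's Wald test) to 9 for CAM against M-CSF, from 3 to 4 for the peptide against CAM, and from 9 to 10 for the peptide against M-CSF. Over all genes DESeq2's Wald test called 3473, 2349 and 3279 in these comparisons, against 6269, 5320 and 5804 with edgeR, and 7, 4 and 8 of the further genes; under the correction for gene length and GC content 6 of the further genes passed for the peptide against CAM. Without a filter on low counts, 10253, 9039 and 9125 genes and 20 and 18 of the further genes (first 2 comparisons) differed by at least 2-fold, as more genes with few counts were included. Library size only as the scaling shifted the median of all genes by -0.48 for CAM against M-CSF and -0.39 for the peptide against M-CSF, and 28.5% and 33.2% of calls were then higher, against 48.2% and 53.8%. For the peptide against CAM that scaling shifted the median by 0.086, with 61.2% of calls higher. The correction for gene length and GC content shifted the medians by -0.12 for the peptide against CAM, with 47.7% of calls higher against 54.6%, and by -0.21 for the peptide against M-CSF, with 43.7% higher. Directions turned only for values past no threshold: P2ry2 in CAM against M-CSF (-0.46 with library size only, -0.15 under the replicate block), and in the peptide against CAM P2rx7 (-0.0047 with DESeq2 size factors, -0.0049 with its Wald test, -0.018 with that correction, -0.23 without peptide library 2 and under the replicate block), P2ry14 (0.26) and Entpd1 (0.055, likewise); the cause was not tested. Leaving out either peptide library kept 3 members at least 2-fold higher than CAM. No paired analysis was possible because the replicate block on column numbers leaves no residual degrees of freedom. The M-CSF and CAM columns carry different numbers, and no label says what these mean. As values with no test, 8, 3 and 9 members differed by at least 2-fold under the block, the same numbers as without it. Single values for CAM against M-CSF moved in size, such as P2rx4 from -0.62 to -0.35 and Adora2b from 3.29 to 3.86. Depth limits P2ry12 and P2ry13 in the activated libraries and the members listed at 0.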
